A study of Gallus gallus with 24 samples.

Results

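Amino acids and short peptides cross cell membranes on carrier proteins of several solute carrier (SLC) families, and the transcripts of these carriers were followed in 4 tissues of young broiler chicks. The members are all probe sets that the array's annotation gives a single gene symbol of the families SLC1, SLC3, SLC6, SLC7, SLC15, SLC36, SLC38 or SLC43, and no filter on signal was used to choose them. They number 50 genes read by 120 probe sets, out of 13009 genes with a single symbol and 38535 probe sets on the array. SLC6 and SLC7 hold 34 probe sets and 13 genes each, SLC38 holds 20 probe sets of 9 genes and SLC1 holds 13 of 6. SLC36 holds 12 probe sets of 2 genes, SLC15 holds 4 of 4, SLC43 holds 2 of 2, and SLC3 holds 1. One gene chosen by the rule, SLC7A6OS, takes its name from its neighbour SLC7A6 and is not a transporter, so 119 probe sets of 49 genes name a carrier.

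The birds were Ross broilers, a commercial strain bred for meat, labelled male, with no treatment or mutation. Liver, whole brain, duodenum and breast muscle were taken at 7 days of age (day 7) and at emergence from the egg (day 0). Each of the 8 groups has 3 pools of RNA from 4 to 5 chicks each, with 1 array per pool (24 arrays), so a value describes a pool and not a bird. Whole tissues were used, so fewer cells of a type and less RNA per cell cannot be told apart in any result below.

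Amino acid carriers differ in what they move, in which direction, and in which membrane they sit. In the gut the brush border takes up peptides with protons and neutral amino acids with sodium, while exchangers pass amino acids to the blood in return for others. In the brain, carriers of the SLC1 and SLC6 families clear the transmitters glutamate, GABA and glycine from the space around synapses. In muscle and liver, uptake of large neutral and of cationic amino acids feeds protein synthesis, and carriers on the lysosome take part in sensing amino acid supply. A newly hatched chick still draws on yolk, and changes to a diet of starch and plant protein in its first week.

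Signals are linear intensities from the deposited table, and changes are given as log2(signal + 28.36) at day 7 minus day 0, with the standard error of the fit. The added value, the 25th percentile of all signals, damps the noise of dim probe sets and understates their changes. A probe set is called at an adjusted p under 0.05 from limma's moderated test, two-sided, with Benjamini-Hochberg adjustment over all 38439 probe sets that are not controls. Where several probe sets name a gene, values are from the one with the highest mean signal unless another is named. Signals of different genes are not compared, since each probe set has its own efficiency.

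Of the 120 probe sets, 30 had a mean below 105, the rounded median of all signals, in every one of the 8 groups, and 90 reached it in at least 1. All probe sets of 4 genes stayed below: SLC15A5, SLC38A11, the glycine carrier SLC6A5, and SLC7A11, which exchanges cystine for glutamate. Just below the line lay 1 probe set each of SLC38A1 (highest group mean 86.8), SLC7A3 (90.6) and SLC36A4 (94.3). Just above it lay SLC6A17 (107), SLC6A20 (107) and another probe set of SLC6A19 (109). The carriers SLC3A2, SLC1A5, SLC6A14, SLC43A1 and SLC7A8 are not analysed here.

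Arrays of a group correlated at 0.915 to 0.978 across probe sets, and no pair held identical values. Control transcripts added before hybridisation gave 41948 on day 7 pool 1 and 25051 on day 0 pool 2 of duodenum, while the remaining 22 arrays gave 5736 to 14526. These duodenum arrays also had the highest median signals, 146 and 132, against at most 119 on any other array. Whole brain day 7 pool 3 and day 0 pool 1 had low 5′ to 3′ ratios of control genes, -1.07 and -1.49 on the log2 scale, against -0.89 to -0.66 on the other whole brain arrays. Defining markers were present in each labelled tissue: 8 of 8 measured liver markers reached 105 in liver, as did 7 of 7 neuron markers in whole brain, 9 of 9 enterocyte markers in duodenum and 7 of 8 skeletal muscle markers in breast muscle.

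A probe set counts as enriched in a tissue where its mean of both ages exceeded that of every other tissue by 4-fold or more, with a call in each pair. By this measure 29 member probe sets of 17 genes were enriched: 16 in whole brain, 9 in duodenum, 3 in liver and 1 in breast muscle. Among all probe sets tested, 4.27% were enriched in whole brain, 1.35% in duodenum, 1.25% in liver and 1.56% in breast muscle, and the members' shares were 13.3%, 7.5%, 2.5% and 0.833% in the same order of tissues. With 1 probe set per gene, 13 genes were enriched, and the share of all genes enriched by that count was not computed. The heat map of group means shows the blocks of brain and duodenum genes and a band of genes with similar signal everywhere.

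**Figure D1:**
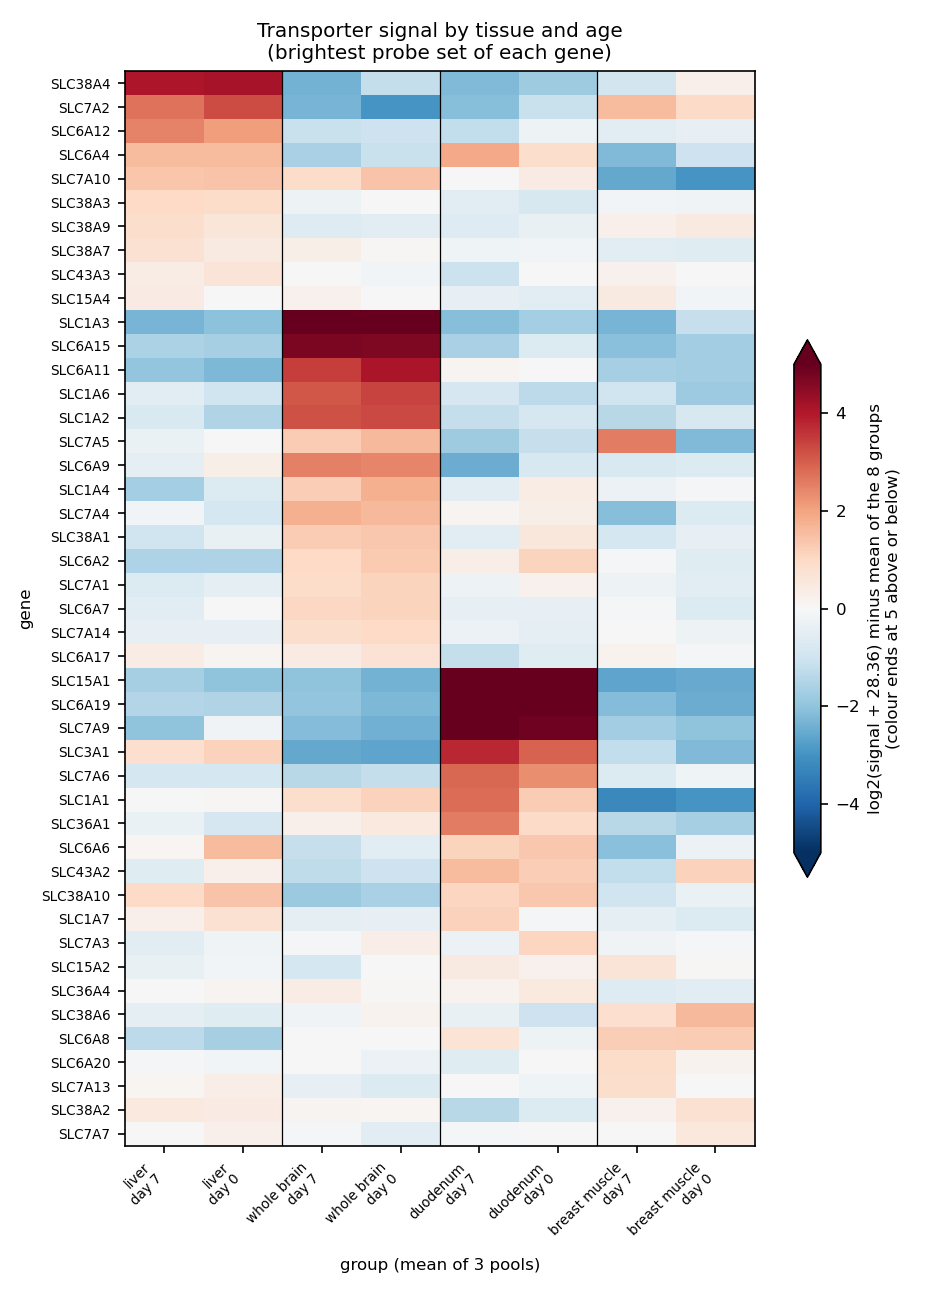
Signal of 45 transporter genes in the 8 groups as log2(signal + 28.36) minus the gene's mean over the groups, with genes in rows (brightest probe set, ordered by the tissue of highest mean), groups in columns (mean of 3 pools), red above and blue below the gene's own mean and colours ending at 5. SLC15A1, SLC6A19 and SLC7A9 stand out in both duodenum columns, SLC1A3 and SLC6A15 in both whole brain columns and SLC38A4 in both liver columns, while SLC7A5 is above its own mean in the day 7 column of breast muscle and below it in the day 0 column.

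The genes enriched in duodenum were SLC15A1, SLC6A19, SLC7A9, SLC3A1 and SLC7A6. SLC15A1, the proton-driven peptide transporter of the gut, ranged from 12692 to 45697 over the 6 duodenum pools of both ages (median 20658), against at most 80.1 in any pool of the other tissues. Its duodenum mean was higher than that of the next tissue, liver, by 8.43 ± 0.26 (adjusted p = 2.08e-19). SLC6A19, the sodium-driven carrier of neutral amino acids, ranged from 10709 to 32153 in duodenum, against at most 199 elsewhere (difference from liver 7.38 ± 0.34, adjusted p = 9.48e-16). SLC7A9 exchanges cationic amino acids and cystine and is anchored by its heavy chain SLC3A1. The exchanger SLC7A9 ranged from 6383 to 16016 in duodenum, against at most 252 in other pools, and was 6.35 ± 0.28 above liver. The heavy chain SLC3A1 was less restricted: it ranged from 4793 to 11776 in duodenum, against at most 1785 in other pools, and was 2.37 ± 0.12 above liver. SLC7A6, an exchanger of cationic for neutral amino acids that sits with a heavy chain on the opposite, basolateral face in mammals, ranged from 5938 to 10669 in duodenum, against at most 1225 in other pools. It was 3.05 ± 0.12 above breast muscle, the next tissue. SLC7A7, the mammalian gut's own exchanger of this kind, showed no such pattern, with group means between 94.7 and 223 and a difference of 0.14 ± 0.21 between its upper tissues, breast muscle and liver.

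The genes enriched in whole brain included carriers of glutamate, GABA and glycine. SLC1A3, the glutamate carrier of astrocytes, ranged from 12571 to 15845 in whole brain, against at most 136 in any other pool, and was 7.60 ± 0.28 above the next tissue. SLC1A2, the other main glial glutamate carrier, ranged from 1712 to 2135, against at most 155 (4.27 ± 0.28 above duodenum). SLC1A6, a glutamate carrier known from cerebellar Purkinje cells in mammals, ranged from 1468 to 2595, against at most 165 (4.01 ± 0.21 above liver). These glutamate carriers had no pool of another tissue near the whole brain range. SLC6A15, which carries branched-chain amino acids and proline into neurons, ranged from 3274 to 4210, against at most 142 (5.85 ± 0.29 above duodenum). SLC6A11, a GABA carrier, ranged from 1329 to 3681, against at most 217, a signal reached in duodenum (3.68 ± 0.27 above it). SLC6A9, the glial glycine carrier, ranged from 2724 to 3843, against at most 997 (2.56 ± 0.17 above liver). Second probe sets of SLC1A4, a carrier of alanine, serine and cysteine, and of the proline carrier SLC6A7 were also enriched in whole brain, while the brightest ones of both were above the next tissue by 1.58 ± 0.18 and 1.32 ± 0.28, short of 4-fold.

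In liver, SLC38A4, a sodium-coupled carrier of neutral and cationic amino acids known from hepatocytes, ranged from 13831 to 17653, against at most 1218 in any other pool, and was 4.42 ± 0.20 above breast muscle. SLC6A12, which carries betaine and GABA, ranged from 358 to 624 in liver, against at most 111 elsewhere (2.76 ± 0.32 above breast muscle). It is read by 6 probe sets, of which 2 were enriched in liver and 4 were not. Some of these 4 were highest in whole brain, by up to 1.05 ± 0.28 over the next tissue, duodenum (adjusted p = 0.00272). SLC38A3, a glutamine and histidine carrier of liver, was 1.09 ± 0.26 above whole brain, which is short of 4-fold.

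Neighbouring genes of the SLC38 family had unlike patterns. On the assembly GRCg7b, by RefSeq's annotation, no protein-coding gene lies between SLC38A1 and SLC38A2 or between SLC38A2 and SLC38A4. SLC38A1, a glutamine carrier of neurons among other cells, was higher in whole brain than in duodenum, the next tissue, by 1.28 ± 0.11 (5926 to 9149 in whole brain, 1887 to 4534 in duodenum). SLC38A2, which carries small neutral amino acids in most cells, differed by only 0.05 ± 0.15 between breast muscle and liver, its upper tissues. SLC38A4, at the other end of the row, was read mainly in liver as described above.

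Probe sets of a gene did not always tell the same story about tissue. SLC7A2, a carrier of the cationic amino acids arginine, lysine and ornithine, had a median of 3804 in liver and 1050 in breast muscle by its brightest probe set. Its other probe set had a median of 729 in breast muscle and 57.9 in liver, and was enriched in breast muscle by 2.85 ± 0.22 over duodenum. Both were low in whole brain (medians 49.9 and 24.6). SLC36A1, a proton-coupled carrier of small neutral amino acids, was highest in duodenum by its brightest probe set (median 1138 over the 6 pools, against 356 in whole brain). Another of its 7 probe sets had a median of 794 in whole brain and 8.02 in duodenum. Whether such probe sets read different transcripts of a gene was not tested.

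Age effects of the members were then compared in each tissue. In duodenum 21 of 120 probe sets (17.5%) were called, 10 higher and 11 lower at day 7, and 14% of all probe sets tested were called there (5.52% higher and 8.44% lower). In breast muscle 19 (15.8%) were called, 6 higher and 13 lower, against 17.5% of all (7.83% higher and 9.65% lower). In liver 9 (7.5%) were called, all lower, against 6.87% of all (3.24% higher and 3.62% lower). In whole brain none was called, against 0.133% of all (0.078% higher and 0.0546% lower). The members' total share of calls was therefore near that of the array in liver and breast muscle and somewhat above it in duodenum, and the results lie in which carriers moved. Median changes over the 120 probe sets were -0.03 in duodenum, 0.18 in breast muscle, -0.07 in liver and -0.08 in whole brain, and -0.02, 0.06, 0.04 and -0.01 over all probe sets in the same order. Every day 7 pool lay above every day 0 pool for 16 members in duodenum, 17 in breast muscle, 8 in liver and 1 in whole brain, and below for 18, 19, 18 and 11. Of all probe sets, 10.5%, 18.3%, 14.1% and 6.05% lay above in this way and 13.5%, 18%, 12.6% and 5.69% below.

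In duodenum, the carriers called higher at day 7 by their brightest probe sets were SLC36A1, SLC1A1, SLC6A4, SLC6A8, SLC3A1 and SLC7A6, and those called lower were SLC6A9, SLC7A3, SLC38A1, SLC43A3, SLC7A2, SLC1A4 and SLC38A2. SLC36A1 had signals of 2031, 1587 and 1695 at day 7, against 635, 688 and 415 at day 0. It rose by 1.59 ± 0.24, a 3.01-fold change (adjusted p = 3.68e-05), and every day 7 pool was far above every day 0 pool. A second of its probe sets had 95.8, 440 and 321 at day 7, against 45.3, 17.8 and 25.2 at day 0 (2.27 ± 0.42, adjusted p = 0.000403). The rest of its 7 probe sets were not called in duodenum.

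SLC1A1, the glutamate and aspartate carrier of the intestinal epithelium, had 1734, 2696 and 2339 at day 7, against 980, 584 and 751 at day 0. It rose by 1.52 ± 0.35 (adjusted p = 0.00312), and its other 2 probe sets were called in the same direction (1.40 ± 0.46 and 1.62 ± 0.43). SLC3A1, the heavy chain, had 8066, 10645 and 11776 at day 7, against 6316, 4793 and 5947 at day 0 (0.83 ± 0.17, adjusted p = 0.00132). SLC7A6 had 10669, 8475 and 8985 at day 7, against 6088, 7482 and 5938 at day 0 (0.53 ± 0.17, adjusted p = 0.037). Without the duodenum arrays with bright hybridisation controls its change was 0.54 (adjusted p = 0.0774), and 9 of 36 alternative settings lost the call. The pools of both ages were separate for each of these carriers, but SLC7A6's second probe set had overlapping pools (0.39 ± 0.22, adjusted p = 0.295).

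The brush border carriers that are read almost only in duodenum had higher means at day 7 but did not pass the test. SLC15A1 had 45697, 21631 and 29238 at day 7, against 13545, 19686 and 12692 at day 0 (1.03 ± 0.37, adjusted p = 0.0661). The pools did not overlap, and the top one was the day 7 pool with bright hybridisation controls. Without that array and the bright one of day 0 the change was 0.94 (adjusted p = 0.235). SLC15A1 was called under 6 of the 36 alternatives, among them the low-signal filter, quantile normalization and the median signal as the added value, and its adjusted p ranged from 0.00198 to 0.294 over them all. SLC6A19 had 32153, 15653 and 20445 at day 7, against 11188, 15707 and 10709 at day 0, so that 1 day 0 pool exceeded 1 day 7 pool (0.82 ± 0.48, adjusted p = 0.334). SLC7A9 had 16016, 11037 and 11794 at day 7, against 7430, 8557 and 6383 at day 0 (0.78 ± 0.40, adjusted p = 0.238), and was called with the median signal added (adjusted p = 0.0169). For these probe sets of SLC6A19 and SLC7A9 as for SLC15A1, the highest of the 6 values came from the same bright array. A second probe set of SLC6A19 had 7474, 6445 and 8312 at day 7, against 2848, 2768 and 4052 at day 0, with no overlap and its top in day 7 pool 3 (1.21 ± 0.43, adjusted p = 0.0624). A second probe set of SLC7A9 had 2928, 4551 and 4907 at day 7, against 2444, 1787 and 2962 at day 0, so that the bright array was its lowest at day 7 (0.77 ± 0.33, adjusted p = 0.142). The plot of duodenum pools shows their spread at each age. The standard errors given here rest on a spread estimated over all 24 arrays, including those of tissues where these carriers were dim.

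**Figure D2:**
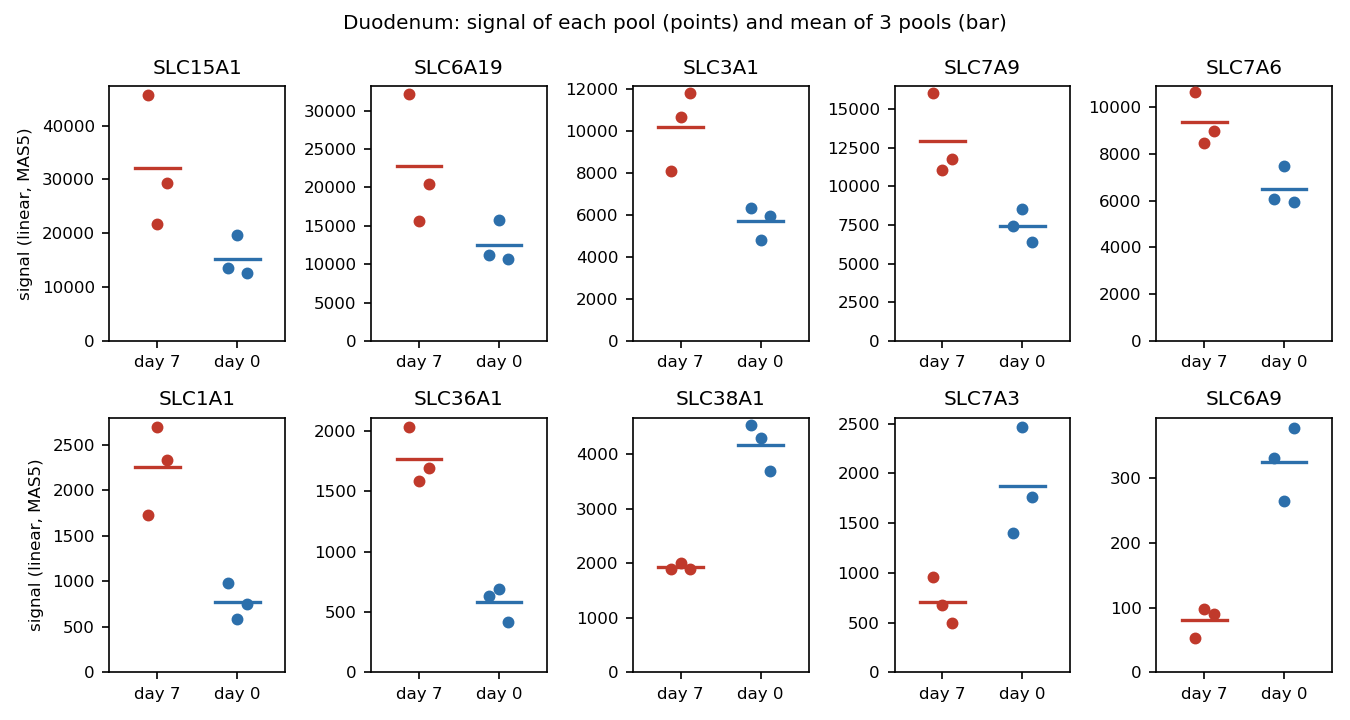
Signal of each duodenum pool (points) and the mean of 3 pools (bar) on a linear axis from 0, day 7 left of day 0 in each panel, for 10 transporter genes. SLC1A1, SLC36A1, SLC3A1 and SLC7A6 are higher at day 7 with no overlap, SLC38A1, SLC7A3 and SLC6A9 are lower with no overlap, and SLC6A19 has 1 day 0 pool (15707) above 1 day 7 pool (15653).

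SLC6A4, the serotonin carrier, had 1001, 1270 and 1094 at day 7, against 502, 600 and 525 at day 0 (1.01 ± 0.31, adjusted p = 0.0311), with every day 7 pool above every day 0 pool. Without the bright arrays the change was 1.16 with an adjusted p of 0.0564. SLC6A8, the creatine carrier, had 1274, 629 and 695 at day 7, against 349, 327 and 643 at day 0 (0.93 ± 0.31, adjusted p = 0.0427). Its pools overlapped, and the call was lost without the bright arrays (0.46, adjusted p = 0.534).

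Among the carriers that fell in duodenum, SLC6A9 changed most. This glycine carrier had 53.7, 97.6 and 90.8 at day 7, against 331, 264 and 377 at day 0 (-1.71 ± 0.24, adjusted p = 1.54e-05), so its day 7 pools lay under the median of all signals. SLC7A3, a carrier of cationic amino acids, had 962, 678 and 497 at day 7, against 1399, 2464 and 1761 at day 0 (-1.37 ± 0.24, adjusted p = 0.000165). Its other 6 probe sets, all dimmer, were not called. The cationic carrier SLC7A2 had 106, 46.4 and 78.9 at day 7, against 146, 248 and 163 at day 0 (-1.03 ± 0.26, adjusted p = 0.00709), and its second probe set fell as well (-0.94 ± 0.31).

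SLC38A1 had 1888, 1994 and 1887 in the day 7 duodenum pools, against 4534, 4282 and 3683 at day 0. This glutamine carrier fell by 1.10 ± 0.16 on the log2 scale (adjusted p = 1.76e-05), and 4 of its 7 probe sets were called lower. Its neighbour SLC38A2 had 641, 1186 and 1234 at day 7, against 1675, 1498 and 1761 at day 0 (-0.73 ± 0.22, adjusted p = 0.0235), a change of -0.50 without the bright arrays (adjusted p = 0.171). SLC43A3, known in mammals as a carrier of purine bases and not of amino acids, had 160, 132 and 67.9 at day 7, against 179, 455 and 237 at day 0 (-1.07 ± 0.30, adjusted p = 0.0144). SLC1A4 had 190, 312 and 275 at day 7, against 551, 405 and 554 at day 0 (-0.90 ± 0.25, adjusted p = 0.0136). Its second probe set averaged 160 at day 7 and 185 at day 0 in duodenum and was not called.

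Markers of other cells moved in the same duodenum pools. Of 9 measured T cell and leukocyte markers, 7 rose and none fell, and their summed signal was 44623 to 64233 at day 7, against 5932 to 8090 at day 0. Of 7 neuron markers 4 fell (1214 to 1479, against 3612 to 4366), of 6 smooth muscle markers 2 fell (37584 to 48693, against 56654 to 64775), and of 7 fibroblast markers 4 fell (70338 to 119070, against 104784 to 183771). Of 10 exocrine pancreas markers 1 rose and 4 fell (44744 to 52292, against 87370 to 155645), and of 9 enterocyte markers 3 rose (102850 to 188096, against 76432 to 83550). Of 6 red cell markers 3 rose (13380 to 15540, against 3954 to 6344). Of 8 liver markers 1 rose and 1 fell (484 to 1040, against 2161 to 3069). Of 7 astrocyte markers 1 rose and 1 fell (9284 to 32786, against 7329 to 9172). Leaving out duodenum day 0 pool 1 left 12 called members in this tissue. The part of the marker shifts in the carriers' changes was not tested.

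Breast muscle had the largest single change of any member, in a carrier of branched-chain and other large neutral amino acids. SLC7A5, the light chain that exchanges such amino acids including leucine, had 3518, 2876 and 3213 at day 7, against 113, 62.8 and 93.8 at day 0. It rose by 4.79 ± 0.24, a 27.65-fold change on this scale (adjusted p = 2.33e-13). A second probe set had 1746, 1641 and 1761 at day 7, against 114, 72 and 88.4 at day 0 (3.88 ± 0.32, adjusted p = 1.65e-09), and another, dim one rose by 0.94 ± 0.31. At day 0 the breast muscle signal of SLC7A5 was below that of every liver, whole brain and duodenum group mean, and at day 7 it was above each of them, as the plot of 4 carriers across tissues shows. In the other tissues the gene did not pass the test, with changes between -0.63 and -0.35.

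SLC43A2 moved the opposite way. This carrier, which lets branched-chain amino acids, phenylalanine and methionine pass down their gradient, had 526, 405 and 489 in breast muscle at day 7, against 2948, 2129 and 2678 at day 0. It fell by 2.38 ± 0.16 on the log2 scale, a 5.19-fold change (adjusted p = 2.32e-11), and its highest day 7 pool was far under the lowest day 0 pool. SLC7A2, SLC7A1 and SLC7A3, the cationic carriers, were not called in breast muscle by their brightest probe sets (0.63 ± 0.26, 0.33 ± 0.32 and -0.08 ± 0.24).

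**Figure D3:**
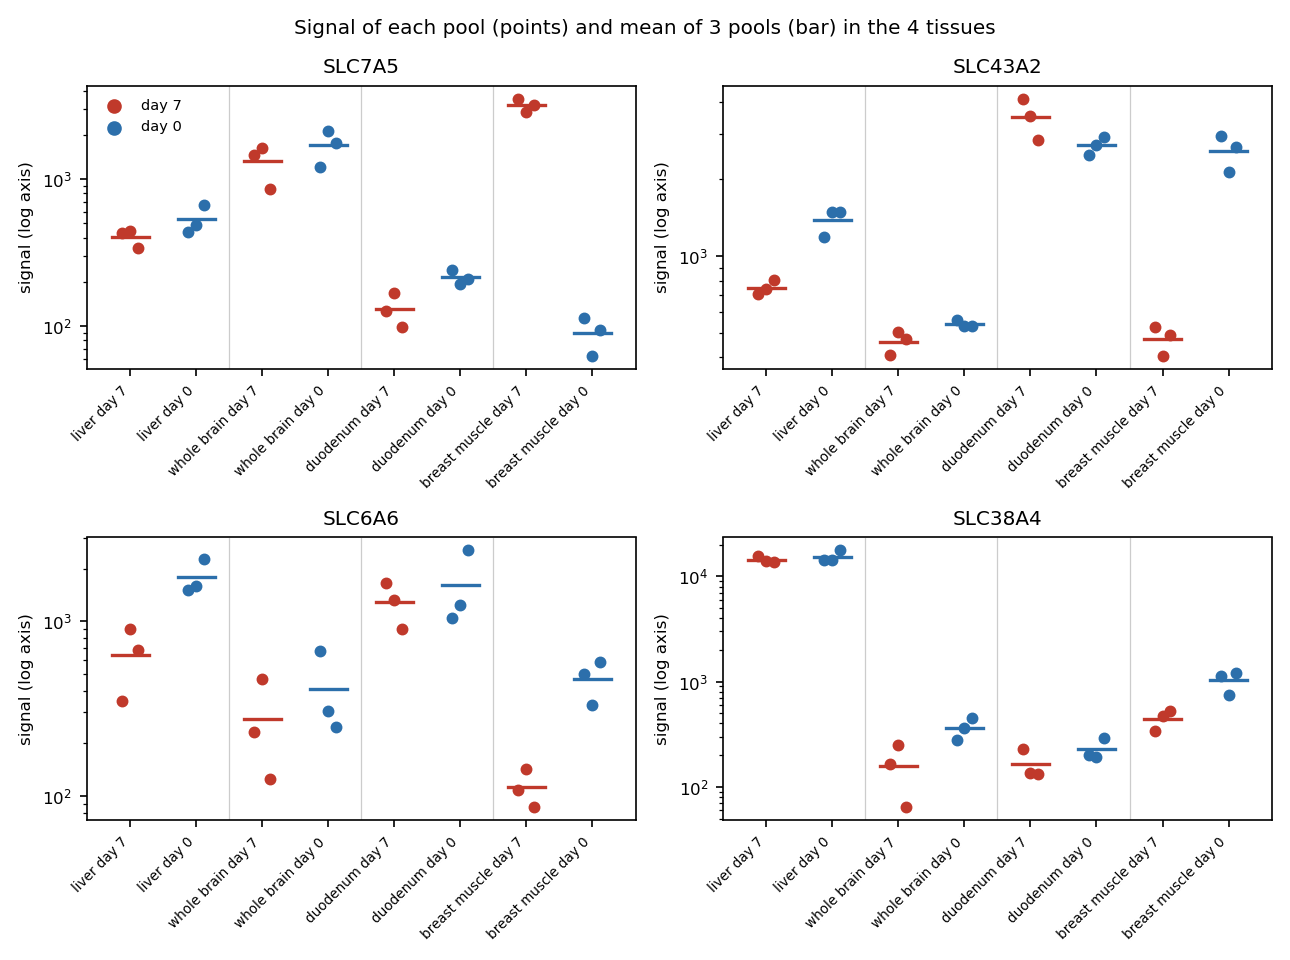
Signal of each pool (points, log axis) and mean of 3 pools (bar) for SLC7A5, SLC43A2, SLC6A6 and SLC38A4 in the 4 tissues, day 7 left of day 0 in each tissue. SLC7A5 is at 2876 to 3518 in breast muscle at day 7 and 62.8 to 113 at day 0, SLC43A2 and SLC6A6 are lower at day 7 in breast muscle and liver, and SLC38A4 lies at 13831 to 17653 in liver over both ages.

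SLC6A6, the taurine carrier, had 108, 142 and 85.7 in breast muscle at day 7, against 497, 329 and 582 at day 0 (-1.81 ± 0.40, adjusted p = 0.0016). A second probe set fell by 0.95 ± 0.30 on the log2 scale, and the remaining 2 were not called. SLC38A4 had 338, 469 and 521 at day 7, against 1120, 748 and 1218 at day 0 (-1.16 ± 0.28, adjusted p = 0.00445). In neither gene did the pools of both ages overlap.

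SLC7A4, a relative of the cationic carriers with no settled substrate, had 20.6, 56.6 and 5.15 at day 7, against 114, 80.9 and 150 at day 0 (-1.44 ± 0.41, adjusted p = 0.0145). Its other probe set, brighter in breast muscle, had 228, 276 and 207 at day 7, against 178, 165 and 177 at day 0, which is the opposite direction without a call (0.39 ± 0.28, adjusted p = 0.414). SLC38A6 had 364, 350 and 405 at day 7, against 658, 626 and 710 at day 0 (-0.79 ± 0.26, adjusted p = 0.0345). SLC38A10 had 1225, 1033 and 1046 at day 7, against 1969, 1626 and 1692 at day 0 (-0.66 ± 0.13, adjusted p = 0.000715). Its second, dim probe set averaged 94.7 at day 7 and 42 at day 0 in breast muscle, the opposite direction without a call. By their brightest probe sets, all day 7 pools of SLC7A4, SLC38A6 and SLC38A10 lay below all day 0 pools. SLC38A1 fell by 0.47 ± 0.16 (adjusted p = 0.0391) on the log2 scale, and 3 of its 7 probe sets were called lower, while SLC38A2 was called lower by its second probe set only (-1.01 ± 0.34, against -0.54 ± 0.22 for the brightest).

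Serotonin carrier SLC6A4 and glial glutamate carrier SLC1A3 were called lower in breast muscle at low signals with overlapping pools. SLC6A4 had 59, 45.9 and 18.3 at day 7, against 176, 53 and 173 at day 0 (-1.16 ± 0.31, adjusted p = 0.0102). SLC1A3 had 45.5, 4.45 and 13.7 at day 7, against 73.9, 136 and 39.8 at day 0 (-1.16 ± 0.40, adjusted p = 0.0429), and 15 of 36 alternative settings lost that call. Both genes were near or below the median of all signals in these groups.

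SLC3A1, the heavy chain, rose in breast muscle, where it had 310, 275 and 268 at day 7, against 122, 142 and 127 at day 0 (0.98 ± 0.17, adjusted p = 0.000156). Its light chain SLC7A9 was below 105 there at both ages. A second probe set of SLC36A1 had 89.8, 131 and 282 at day 7, against 14.7, 18.3 and 18.6 at day 0 (1.98 ± 0.42, adjusted p = 0.00121), while the brightest one did not pass (0.28 ± 0.24, adjusted p = 0.507). The second probe set of SLC1A4 rose by 0.89 ± 0.26, and its brightest one was at -0.20 ± 0.25.

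In the breast muscle pools, 2 of 6 measured red cell markers rose (summed signal 53563 to 71077 at day 7, against 41319 to 47448 at day 0) and 2 of 9 leukocyte markers rose (5419 to 6034, against 3446 to 4007). All 3 measured markers of myelin-forming cells fell (2333 to 2469, against 9771 to 10993), and 1 of 8 skeletal muscle markers rose (397817 to 480792, against 298670 to 305481). Of 7 neuron markers 1 fell (181 to 264, against 336 to 365), of 7 fibroblast markers 1 fell (182789 to 202418, against 190878 to 203763), and of 7 astrocyte markers 1 rose and 1 fell (4098 to 4747, against 6121 to 8129). Of 6 smooth muscle markers 1 fell, while their summed signal was 12028 to 14292, against 9087 to 10429. The part of these markers in the carriers' changes was not tested. Leaving out breast muscle day 0 pool 1 lowered the number of called members to 10 and leaving out day 7 pool 2 lowered it to 12, while SLC7A5, SLC43A2, SLC6A6, SLC38A4, SLC38A10 and SLC3A1 kept their calls under all 36 alternatives.

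All members called in liver were lower at day 7. SLC7A9, the cystine and cationic exchanger, had 77.5, 24.8 and 17.7 at day 7, against 231, 252 and 128 at day 0 (-1.82 ± 0.40, adjusted p = 0.00414). Its heavy chain SLC3A1 had 1266, 1335 and 1277 at day 7, against 1785, 1352 and 1688 at day 0, and did not pass (-0.30 ± 0.17, adjusted p = 0.418). SLC6A6 had 351, 896 and 682 at day 7, against 1512, 1585 and 2282 at day 0 (-1.51 ± 0.40, adjusted p = 0.0175).

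SLC43A2 had 707, 740 and 803 in liver at day 7, against 1186, 1491 and 1483 at day 0 (-0.86 ± 0.16, adjusted p = 0.000607). SLC1A4 had 57.9, 93.8 and 157 at day 7, against 188, 185 and 322 at day 0 (-1.02 ± 0.25, adjusted p = 0.00983). For both carriers every day 7 pool lay below every day 0 pool by these probe sets. A second probe set of SLC1A4 showed no fall in liver, with means of 120 at day 7 and 118 at day 0. SLC6A9 had 326, 307 and 630 at day 7, against 997, 655 and 580 at day 0, with 1 day 7 pool above 1 day 0 pool (-0.82 ± 0.24, adjusted p = 0.0398).

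SLC38A1 had 1470, 1298 and 1430 in liver at day 7, against 2236, 2308 and 1941 at day 0 (-0.61 ± 0.16, adjusted p = 0.0146). SLC38A10 had 4001, 4602 and 4413 at day 7, against 6482, 5718 and 6078 at day 0 (-0.49 ± 0.13, adjusted p = 0.0245). Its second probe set averaged 155 at day 7 and 178 at day 0 in liver and was not called. The liver's own carrier SLC38A4 did not pass the test, with 15443, 13883 and 13831 at day 7, against 14226, 14342 and 17653 at day 0 (-0.09 ± 0.28). Nor did SLC7A2, with 3587, 2565 and 2723 at day 7, against 4983, 4020 and 4145 at day 0 (-0.57 ± 0.26, adjusted p = 0.247), although its pools did not overlap.

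Centring each array on its median left 4 liver calls, and leaving out liver day 7 pool 1 also left 4. Leaving out liver day 0 pool 1 left 5. These counts were not set against the share of all probe sets called under the same settings. In the liver pools 7 of 9 leukocyte markers rose (summed signal 31166 to 39510 at day 7, against 5901 to 6264 at day 0), as did 3 of 6 red cell markers (88604 to 90933, against 37066 to 44961). Of 10 exocrine pancreas markers 2 fell (318 to 585, against 352 to 2721), and of 7 fibroblast markers 1 fell (59617 to 69668, against 81944 to 89590). Of 7 astrocyte markers 2 rose (27872 to 34069, against 15388 to 21480). Of 9 enterocyte markers 1 rose and 1 fell (39994 to 45751, against 33654 to 39210). At day 7 the astrocyte list summed to 40053 to 46452 in whole brain and the enterocyte list to 102850 to 188096 in duodenum. Liver thus gave signal on both lists. Calls on the astrocyte list outside whole brain, or on the enterocyte list outside duodenum, are therefore not read as changes in those cells. The part of these markers in the carriers' changes was not tested.

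In whole brain no member was called. The share of all probe sets with an unadjusted p under 0.05 was not counted there, and 4 of the 120 members had one in limma. The smallest of these was that of SLC38A4, with 165, 249 and 63.7 at day 7, against 278, 366 and 448 at day 0 (-1.18 ± 0.28, adjusted p = 0.138), and no day 7 pool reached a day 0 pool. Changes of the transmitter carriers were -0.12 ± 0.40 for SLC1A3, -0.12 ± 0.39 for SLC1A2, 0.07 ± 0.24 for SLC6A9 and -0.61 ± 0.38 for SLC6A11, none of them called. A missed threshold does not show that these genes held steady. Without the arrays of low 5′ signal no member was called either. In the whole brain pools 3 of 6 red cell markers rose (summed signal 52295 to 55051 at day 7, against 15672 to 18574 at day 0). Of 9 leukocyte markers 1 rose (3993 to 4441, against 1791 to 2023), and no marker of another cell type was called. The part of these markers in the carriers' values was not tested.

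Counted by gene, 22 of the 50 (44%) were called in at least 1 tissue by the brightest probe set, against 44.6% of all 13009 genes with a single symbol: 14 in 1 tissue, 7 in 2 tissues and 1 in 3. The 8 genes called in more than 1 tissue are 16% of the members, against 15.4% of all genes, so neither share sets the members apart. They included 6 that were lower in each (12% of the members, against 6.42% of all genes). SLC38A1 was lower in duodenum, breast muscle and liver, SLC43A2, SLC6A6 and SLC38A10 were lower in breast muscle and liver, and SLC1A4 and SLC6A9 were lower in duodenum and liver. SLC3A1 was higher in duodenum and breast muscle. SLC6A4 was called in opposite directions, higher in duodenum and lower in breast muscle, and those changes differed by 2.16 ± 0.45 (adjusted p = 0.00103).

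A call in 1 tissue alone does not show that tissues differ, so the age effects themselves were compared. The F test over the 4 age effects called 21 of 120 member probe sets, against 18.5% of all probe sets tested. By brightest probe set 14 genes passed: SLC7A5, SLC43A2, SLC3A1, SLC6A9, SLC7A2, SLC36A1, SLC6A4, SLC7A9, SLC38A1, SLC1A1, SLC7A6, SLC7A3, SLC38A6 and SLC7A4. No other probe set of SLC1A1, SLC7A2, SLC7A3, SLC7A4 or SLC7A6 passed, while another did for SLC36A1, SLC38A1, SLC38A6, SLC7A5 and SLC7A9. The share of all genes that passed by brightest probe set was not counted, so this gene count is not set against the array. The plot of age effects shows the breast muscle values of SLC7A5 and SLC43A2 apart from those of the other tissues, and for both genes breast muscle was called against each of the other tissues. No pair of liver and duodenum was called for SLC36A1, SLC1A1, SLC7A3 or SLC6A9.

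**Figure D4:**
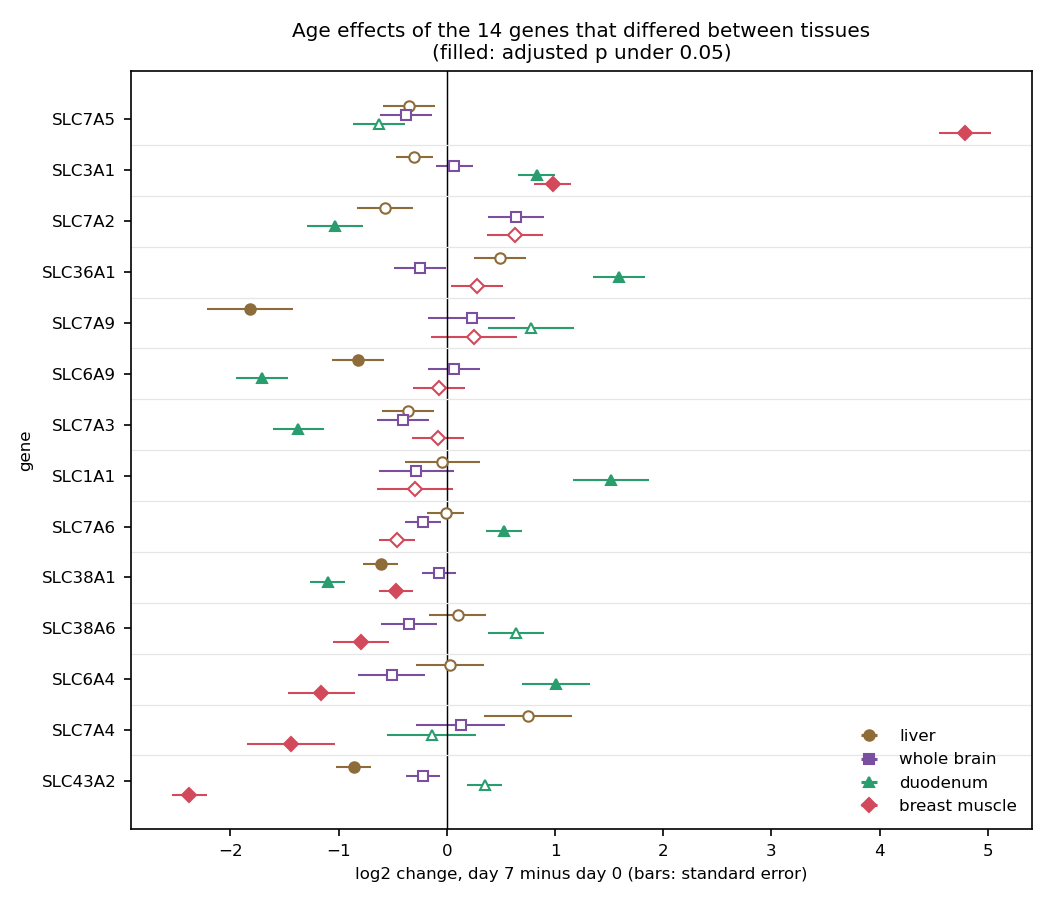
Log2 change of signal, day 7 minus day 0, with its standard error for the brightest probe sets of the 14 genes whose age effects differed between tissues, 1 marker per tissue and filled where the change itself passed an adjusted p of 0.05. SLC7A5 lies at 4.79 in breast muscle and between -0.63 and -0.35 elsewhere, SLC43A2 at -2.38 in breast muscle and 0.35 in duodenum, and SLC36A1 at 1.59 in duodenum and between -0.25 and 0.49 elsewhere.

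The liver, whole brain and duodenum changes of SLC7A5 minus that of breast muscle came to -5.14, -5.17 and -5.42 (SE 0.34 each, highest adjusted p = 1.91e-10). For SLC43A2 the duodenum, whole brain and liver changes were above that of breast muscle by 2.73, 2.16 and 1.52 (SE 0.22 each), and the liver change was below that of duodenum (-1.21 ± 0.22, adjusted p = 0.000993). By its brightest probe set, the duodenum change of SLC36A1 was above that of breast muscle (1.31 ± 0.34, adjusted p = 0.0087) and of whole brain. The difference of whole brain minus duodenum was -1.84 ± 0.34 (adjusted p = 0.00124), while liver minus duodenum did not pass (-1.10 ± 0.34, adjusted p = 0.0663). A second probe set of SLC36A1 rose in both duodenum (2.27) and breast muscle (1.98), so the contrast of these 2 tissues rests on the brightest one. SLC7A9 moved differently in liver and duodenum (liver minus duodenum -2.60 ± 0.57, adjusted p = 0.00554), with a fall in liver beside a duodenum change that did not itself pass. Of the carriers of cationic amino acids, SLC7A2 differed between duodenum and breast muscle (-1.66 ± 0.37, adjusted p = 0.00219), and so did SLC7A3 (-1.29 ± 0.33, adjusted p = 0.00824). SLC6A9 fell more in duodenum than in breast muscle (-1.63 ± 0.34, adjusted p = 0.00126), and SLC38A6 differed between duodenum and breast muscle by 1.42 ± 0.37 (adjusted p = 0.00755). A second probe set of SLC38A6 was called higher in duodenum (0.94, adjusted p = 0.0436), a call lost under 18 of 36 alternatives.

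The carriers not yet described had no call for age by their brightest probe set. They include SLC7A1, the cationic carrier of most cells, with group means of 60.9 to 279, and SLC7A10, a carrier of small neutral amino acids and D-serine, which reached 689 in liver and 675 in whole brain at day 0 and stayed at or below 16 in breast muscle. SLC38A9, the lysosomal arginine sensor, had group means of 245 to 765. SLC38A7, a lysosomal glutamine carrier, SLC15A4, which moves histidine and peptides out of lysosomes, and the peptide carrier SLC15A2 did not pass either. The same held for SLC1A7, SLC6A2 (noradrenaline), SLC6A17, SLC6A20 (proline and other imino acids), SLC7A13, SLC7A14 and SLC36A4, the other member of the SLC36 family. SLC1A7 came nearest, in duodenum (1.26 ± 0.43, adjusted p = 0.0503), from signals of 185, 85.2 and 82.7 at day 7, against 37.1, 9.91 and 49.3 at day 0. The value of 185 came from the day 7 array with bright hybridisation controls.

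Genes that work beside the carriers were read from 4 lists, with 1 probe set per gene and no test of a list. As background to these and to the marker counts above, 5.52% of all probe sets were called higher and 8.44% lower in duodenum. The shares were 7.83% and 9.65% in breast muscle, 3.24% and 3.62% in liver, and 0.078% and 0.0546% in whole brain. Median changes over all probe sets were -0.02, 0.06, 0.04 and -0.01 in the same order of tissues. Of 16 measured brush border peptidases and partners, 8 rose and 1 fell in duodenum (median change 0.82). They included the sodium and proton exchanger SLC9A3 (2.08 ± 0.36), which helps to hold the proton gradient used by SLC15A1, and the peptidases ACE (1.70 ± 0.31), which removes dipeptides, and DPP4 (1.52 ± 0.23). The cytosolic aminopeptidase LAP3 fell (-1.13 ± 0.18). ANPEP, the aminopeptidase known to associate with SLC6A19 in mammals, averaged 27704 ± 7294 at day 7 and 11564 ± 791 at day 0 in duodenum (SD, n = 3 each; change 1.23 ± 0.18, adjusted p = 1.66e-05). In liver 2 of the 16 rose and 1 fell: ENPEP rose by 4.04 ± 0.29 and DPP4 by 2.64 ± 0.23, and ACE fell (-1.21 ± 0.31). In breast muscle 3 rose and 2 fell, with MME at 2.79 ± 0.26, ANPEP at -1.68 ± 0.18 and ACE at -1.50 ± 0.31, and in whole brain none was called.

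The amino acid deprivation response, a set of genes that mammalian cells raise when amino acids run short, had 18 measured genes outside the carriers. In breast muscle 6 rose and 2 fell (median 0.28). Serine synthesis enzyme PSPH rose by 4.07 ± 0.26, asparagine synthetase ASNS by 2.25 ± 0.48 and PSAT1, another serine synthesis enzyme, by 1.32 ± 0.18, while the secreted glycoprotein STC2 changed by -3.71 ± 0.31 and the transcription factor CEBPB by -1.58 ± 0.19. In duodenum 1 rose and 6 fell (median -0.57), in liver 1 rose and 3 fell (median 0.09), and in whole brain 2 fell (median -0.19). CHAC1, which degrades glutathione, was lower in liver (-3.76 ± 0.29), whole brain (-1.69 ± 0.29) and duodenum (-1.59 ± 0.29) and higher in breast muscle (1.14 ± 0.29).

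Of 24 measured genes of lysosomal amino acid sensing, 5 rose and 8 fell in breast muscle (median -0.06). The small GTPases RRAGA (1.70 ± 0.22) and RRAGD (1.62 ± 0.26), which recruit the kinase MTOR to the lysosome, were higher, while the leucine sensor's relative SESN1 (-1.33 ± 0.14) and MTOR itself (-1.18 ± 0.18) were lower. In liver 3 rose and 1 fell, in duodenum 3 rose and 1 fell, and in whole brain none was called. Of 11 measured amino acid carriers outside the families, 3 rose and 3 fell in breast muscle, 2 rose and 1 fell in duodenum, 1 rose and 1 fell in liver, and none was called in whole brain. The ornithine carrier of mitochondria, SLC25A15, fell in breast muscle (-1.93 ± 0.21) and duodenum (-1.52 ± 0.21), and the lysosomal cystine carrier CTNS rose in breast muscle (0.82 ± 0.16), duodenum (0.55 ± 0.16) and liver (0.55 ± 0.16).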

How the data were processed

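RNA of pooled tissue was labelled and hybridised to Affymetrix chicken arrays, 24 in all, each with RNA from 4 to 5 chicks. The deposited table holds linear signal intensity values that the authors computed with MAS5, per the submitters' processing notes. Neither the MAS5 version nor a genome build is given for the deposited values. The assembly GRCg7b, named above for the order of SLC38 genes, is that of the RefSeq annotation. MAS5 subtracts mismatch signal and scales each array to a common trimmed mean, so dim values are noisy and a shift of all transcripts is removed.

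Of 38535 probe sets, 96 controls were left out. The annotation gives 27178 probe sets 1 gene symbol, 177 several, and does not list 11180; 48 member genes matched RefSeq by gene number. Values became log2(signal + 28.36), where 28.36 is the 25th percentile. All 8 group means were fitted with limma 3.58.1 (R 4.3.3; 16 residual degrees of freedom, variance trend) and adjusted by Benjamini-Hochberg, called at 0.05, with no signal filter. The fit was run on simulated data with large changes planted in duodenum only, in probe sets with mean signal above the median. That run does not bear on smaller changes or on dim members. Medians, counts and figures came from Python 3.11.15 with pandas 2.3.3, numpy 2.4.6 and matplotlib 3.10.9.

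Members, lists and markers were chosen with earlier results of these data known. Values by pool are given for up to 8 called genes per tissue by size of change, up to 6 enriched genes per tissue, and a set of well known carriers; further genes were named after their values were seen. Pools of a group are treated as replicates. Each test sets a difference against the spread between pools within groups, estimated over all 24 arrays and not only over the pools compared. Pool numbers are shared between groups, but deviations from group means correlated at -0.36 to 0.251 between ages of a tissue (over 0.1 in 2 of 12 pairs) and at -0.137 to 0.0917 between tissues of an age, so the numbers were not taken as pairs. Alternatives were another added value, a signal filter, other normalizations, array weights, no variance trend, single tissues, replicate blocks, 1 probe set per gene, and arrays left out.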

Additional observations from a re-analysis of the deposited data

Results flagged for a closer look

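For the brightest probe sets of 14 genes the age effects differed between tissues by limma's F test over the 4 effects in 1 fit, with Benjamini-Hochberg adjustment over all probe sets. Counted by probe set, 21 of 120 members passed, against 18.5% of all probe sets tested, so the number that passed does not set the members apart. The other probe sets of SLC1A1 (adjusted p of 0.371 and 0.175), SLC7A2 (0.39), SLC7A6 (0.763), SLC7A4 (0.633) and SLC7A3 (0.273 to 0.944) did not pass. Another probe set did pass for SLC36A1, SLC38A1, SLC38A6, SLC7A5 and SLC7A9. Among carriers of large neutral amino acids, the adjusted p was 2.32e-11 for SLC7A5 (change of 4.79 in breast muscle, and between -0.63 and -0.35 elsewhere) and 8.29e-09 for SLC43A2 (-2.38 in breast muscle, 0.35 in duodenum). Among cationic carriers and their partners it was 0.000623 for SLC3A1, 0.00151 for SLC7A2, 0.00562 for SLC7A9, 0.0195 for SLC7A6 and 0.027 for SLC7A3. For SLC7A4, a relative of these carriers with no settled substrate, it was 0.0419. Among carriers of transmitters and of glutamate it was 0.00106 for the glycine carrier SLC6A9, 0.00489 for the serotonin carrier SLC6A4 and 0.0188 for SLC1A1. Among carriers of small neutral amino acids it was 0.00189 for SLC36A1, 0.00994 for SLC38A1 and 0.0287 for SLC38A6.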

How the results depend on the processing

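No called age effect changed sign under any of 36 alternatives; 19 of 49 stayed called under each of them and 30 were lost under at least 1. Of the members called, liver had 9, and 4 with each array centred on its median. Whole brain had 0, and 1 with quantile normalization or with array weights. Duodenum had 21, and 12 with each tissue fitted alone or 13 with 1 probe set per gene. Breast muscle had 19, and 11 with 1 probe set per gene, where the 29 enriched probe sets became 13. Fewer probe sets are counted with 1 per gene; the cause of the other changes was not tested. Leaving out 1 array in turn gave 12 to 22 calls in duodenum (12 without duodenum day 0 pool 1), 10 to 23 in breast muscle (10 without breast muscle day 0 pool 1), 4 to 11 in liver (4 without liver day 7 pool 1) and 0 to 1 in whole brain (1 without day 7 pool 2). It gave 17 to 21 for the F test and 27 to 30 enriched. With pool number as a replicate block the counts were 21 in duodenum, 18 in breast muscle, 9 in liver and 0 in whole brain, with 21 by the F test and 29 enriched. Counts under the alternatives were not set against the share of all probe sets called under the same setting. MAS5 noise limits members near or below the median signal. Promoter motifs and protein identities were not analysed here.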
